A study of Mus musculus with 16 samples.

Results

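The genes described here are 55 genes of DNA damage signalling and repair, named by symbol and found by their Ensembl identifiers among the 46078 genes of the count table. All 55 were present in the table. They were read in haematopoietic stem cells (HSCs) of C57/Bl6 mice, gated as LSK CD48-CD150+ and collected as pools of 30. The bone (endosteal) fraction and the marrow (central) fraction of tibia, femur and humeri were sorted separately, from untreated WT mice and from Gfra2-/- mice, which lack the neurturin receptor GFRα2 in all cells and were studied as a model of reduced cholinergic innervation. The 4 groups were endosteal WT (4 libraries), central WT (4), endosteal Gfra2-/- (4) and central Gfra2-/- (3), and libraries carry letters within a group only as names. The labels give neither the age of the mice nor whether the pools of a group came from different mice, so p-values measure the spread between these pools.

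Cells sense broken or stalled DNA through the kinases ATM, ATR and DNA-PK, which activate checkpoint kinases and p53 and so halt the cell cycle, start repair or lead to cell death. Breaks are repaired by homologous recombination, which copies an intact sister chromatid and works in cycling cells, or by non-homologous end joining, which ligates the ends and is the main route in quiescent cells. Crosslinks are handled by the Fanconi anaemia proteins, bulky lesions by nucleotide excision repair, and mispaired bases by mismatch repair. HSCs depend on these pathways over the life of the animal, and loss of Fanconi genes, Atm or Lig4 depletes the HSC pool.

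The libraries held between 826487 and 18550008 reads on genes. All 4 central WT libraries, with 826487 to 3367289 counts, were shallower than every library of the other groups. By the quality cut-offs as read here, 2 of them did not pass, since they had under 1500000 reads on genes. The study's own limit of this size was on uniquely mappable reads, which are not the same measure. Gfra2 had 0 to 4 counts in WT libraries, and 47 and 9 counts in 2 endosteal libraries labelled Gfra2-/-. Their CPM, 2.37 and 0.79, lay below the 5.35 CPM that 4 counts gave in the shallow central WT library C. Gfra2 reads thus did not separate the genotypes, and all labels were kept. Levels are given as CPM, with library totals adjusted by TMM factors. The 9 HSC markers were detected in every group and summed to 2039 to 4097 CPM. Neutrophil and monocyte markers summed to 150 to 448 CPM in endosteal WT, 214 to 2298 in central WT, 76.0 to 138 in endosteal and 148 to 484 in central libraries labelled Gfra2-/-, with Elane at 0 in the first 3 groups. B cell markers summed to 8.37 to 321 CPM in 3 groups and to 33.9 to 1795 CPM in endosteal libraries labelled Gfra2-/-. Of the T cell markers, Cd3e, Cd3g and Cd8a were at 0 in both endosteal groups. All 4 T cell markers were detected in central libraries labelled Gfra2-/-, with a highest sum of 23.2 CPM, against 0.93 elsewhere. Erythroid and megakaryocyte markers had highest sums of 463 and 599 CPM in endosteal libraries labelled Gfra2-/-, against 88.1 and 434 elsewhere. Stromal, bone and endothelial markers had a highest sum of 127 CPM in central WT libraries, against 63.8 elsewhere. The part of cells with these markers in the results below was not tested.

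The 55 genes took 0.188 to 0.329% of the counts of a library. Between 46 and 55 of them had a read in a given library, 40 had a read in every library, and 19 had at least 10 reads in every library. Of the 26 genes with 3 counts or fewer in some central WT library, 2 (Rad9a and Fanci) had 3 or fewer in all of those libraries. With all libraries thinned to 826487 counts, 42 to 54 of the genes were detected.

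**Figure D1:**
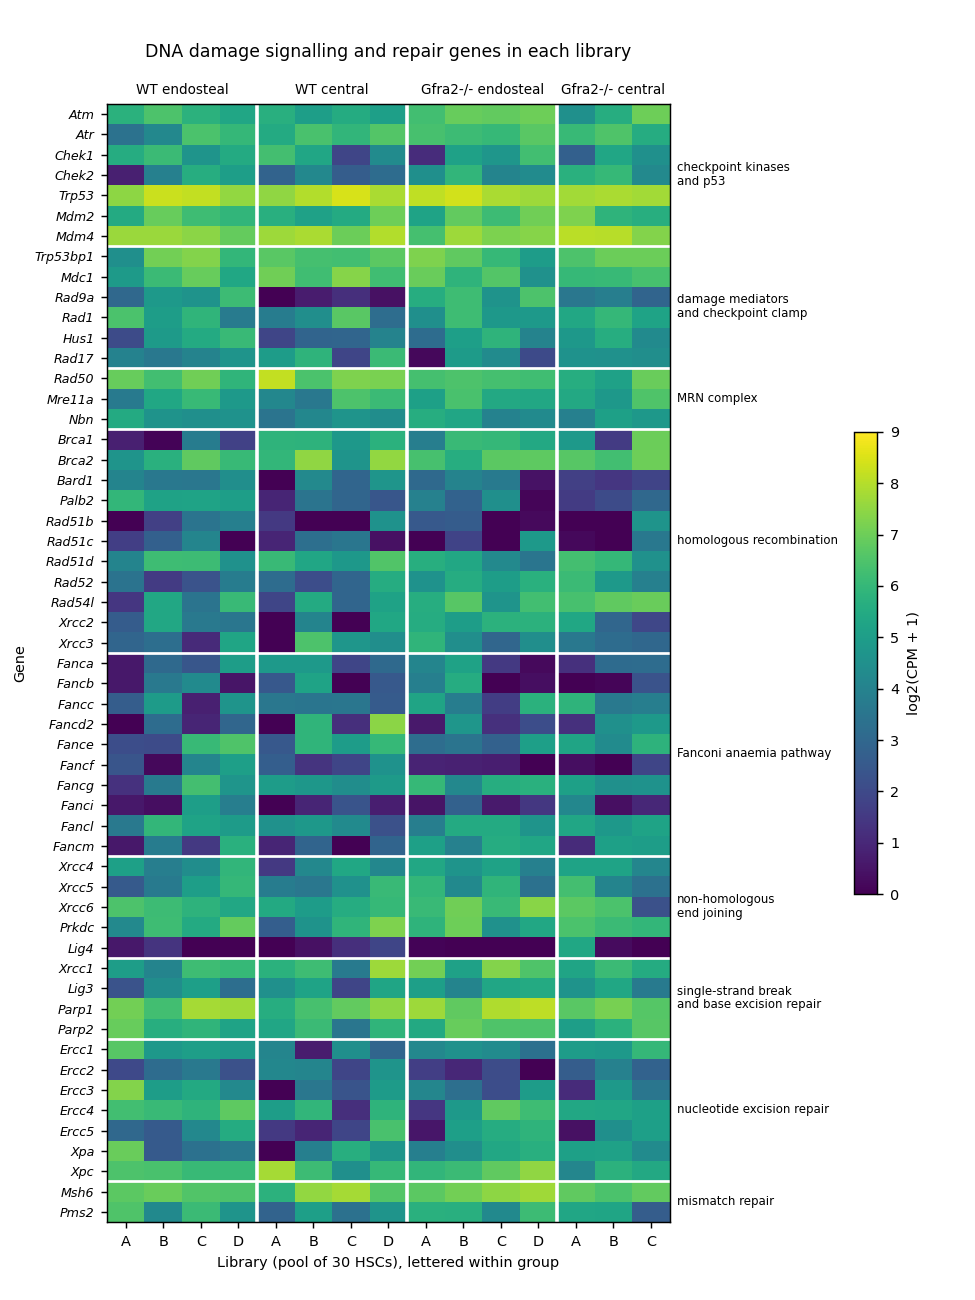
Levels of the 55 genes (rows, grouped by role) in the 15 libraries (columns, grouped by genotype and compartment), as log2(CPM + 1) on a colour scale. Trp53, Mdm4 and Parp1 are bright in every library, whereas Rad51b, Rad51c, Fanci, Fancb and Lig4 are dark in most, and Rad9a is dark in the 4 central WT libraries.

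To compare genes with each other, CPM were divided by the length of the main transcript in kb. Trp53, the transcription factor at the centre of the response, had the highest mean level over the 15 libraries, 138 CPM per kb. Its lowest library (98.5 CPM per kb) lay above the highest library of Parp1 (70.3 CPM per kb), which was next in order with a mean of 38.3. Only the highest library of Xpa, at 129 CPM per kb, reached into the range of Trp53. The following ranks were close together, with means of 34.01 CPM per kb for Parp2, 31.4 for Xpa, 29.9 for Msh6 and 28.998 for Xrcc1, and neighbours in this order did not differ beyond their spread between libraries.

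Among the checkpoint kinases and p53 regulators, Mdm4 (26.1 CPM per kb) and Mdm2 (25.03), both inhibitors of p53, lay above the checkpoint kinases Chek2 (11.2) and Chek1 (9.29) and the upstream kinases Atr (8.09) and Atm (6.99). Rad1 (27.3) and Hus1 (5.48), subunits of the same checkpoint clamp, were the highest and the lowest of the mediator and clamp genes. Within the MRN complex, which tethers broken ends, Rad50 had 20.6 CPM per kb and Nbn 10.002.

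The genes of homologous recombination ran from 17.1 CPM per kb for Rad54l, a motor protein of this pathway, to 1.45 for Rad51c, with Brca1 at 5.57. In the Fanconi anaemia pathway Fance, a core complex subunit, was highest (16.1) and Fanci, which forms the clamp on crosslinked DNA with FANCD2, was lowest (1.13), with Fancd2 at 3.96. In non-homologous end joining Xrcc6, which encodes Ku70, had 21.7 CPM per kb, Prkdc, the catalytic subunit of DNA-PK, had 5.05, and Lig4, the ligase of this pathway, was the lowest of all 55 genes with 0.614. Lig4 had 607 counts in central Gfra2-/- library A, 23 in endosteal WT library B and 8 or fewer in each of the other 13 libraries. In excision and mismatch repair the range ran from Parp1, Xpa, Msh6 and Xpc (22.3) to Pms2 (6.66), Lig3 (4.27) and Ercc2 (2.21), the last a helicase of TFIIH.

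**Figure D2:**
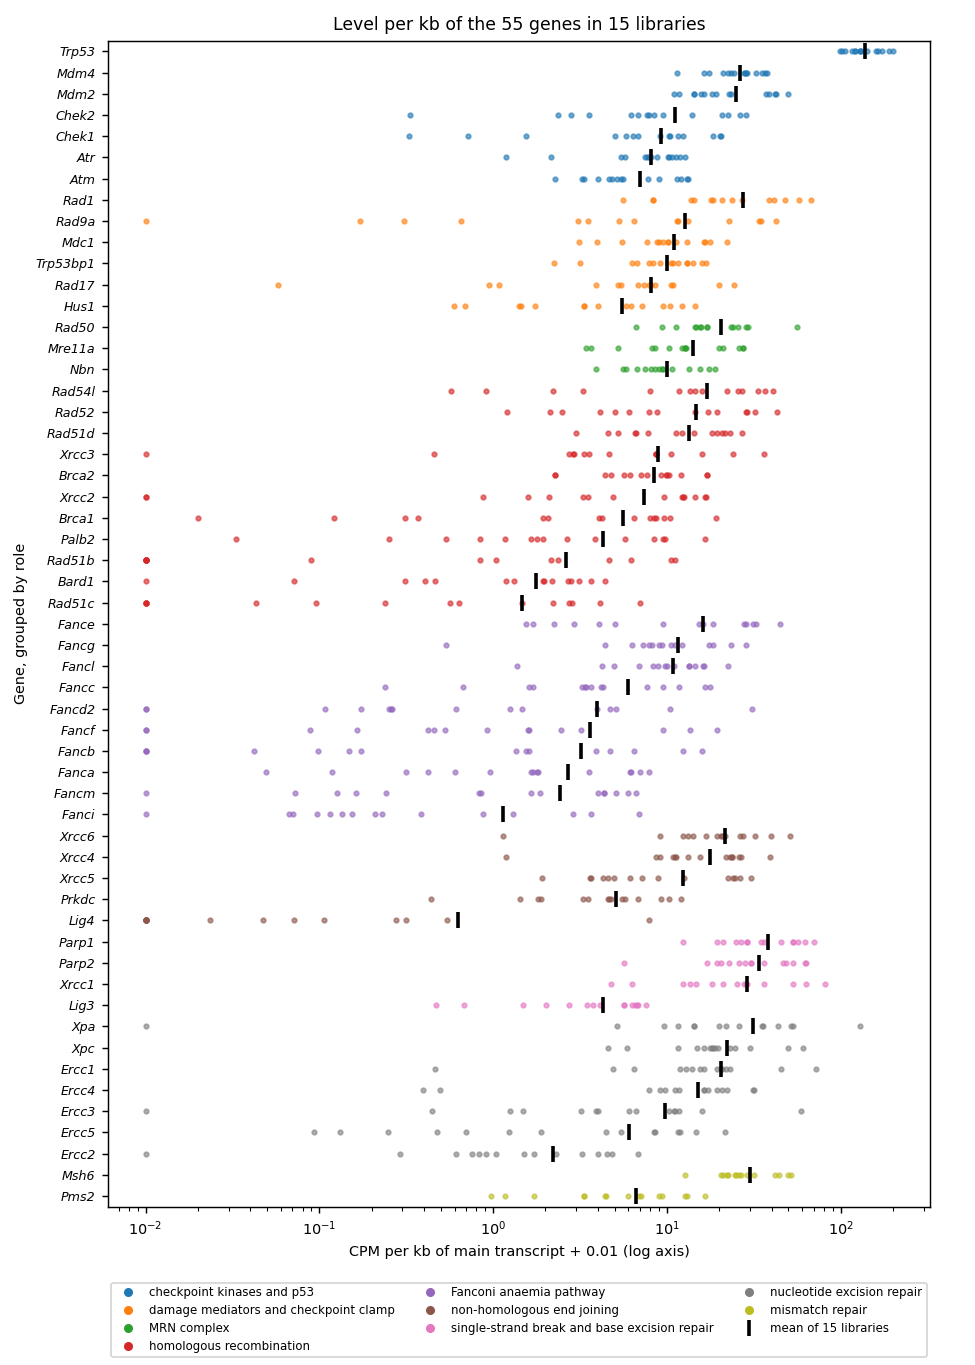
Level of each gene per kb of its main transcript, with 0.01 added, on a log axis; dots are the 15 libraries, coloured by role, and black bars are means. The mean of Trp53 stands to the right of every other mean, with its lowest library at 98.5 CPM per kb below the highest Xpa library at 129, and Lig4 has the lowest mean, 0.614.

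The spread between libraries was large for most of these genes. The coefficient of variation (CV, the SD over the mean of the 15 libraries) had a median of 77.9%, against 82.5% for all 15416 genes tested, and ranged from 22.7% for Trp53 to 329% for Lig4. It was above 100% for 14 genes and below 50% for 8. The latter were Trp53, Mdm4 (29.5%), Msh6 (38.5%), Atr (41.5%), Trp53bp1 (43.1%), Nbn (44.4%), Parp1 (45.5%) and Mdc1 (48.7%). Compared with the median CV of all genes of a like level, 28 of the 55 genes were above and 27 at or below it.

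**Figure D3:**
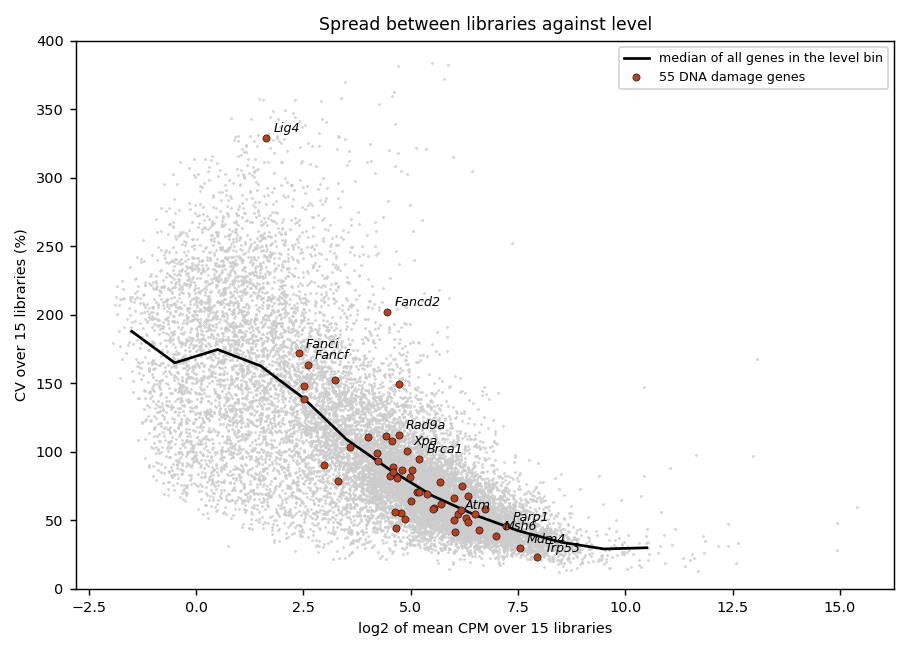
Coefficient of variation over the 15 libraries against log2 of the mean CPM, for the 55 genes (red) and all 15416 genes tested (grey), with the median of all genes in bins of level (line). Of the 55 genes, 28 lie above the line of their bin, Lig4 and Fancd2 farthest from it, and Trp53 has the lowest value, 22.7%.

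Many repair genes are transcribed in S phase under E2F factors, and the promoters of the genes were therefore read for short motifs. RefSeq promoters (GRCm38.p6, 250 bases before to 50 after a start site) were at hand for 46 of the 55 genes, with 52 promoters in all. The E2F letters TTTCCCGC, TTTCGCGC, TTTGCCGC or TTTGGCGC, on either strand, were present in 9 of the 52 promoters (17.3%), against 3.95% of the 12774 promoters of tested genes and 2.26% of all 32851 promoters. The 8 genes were Bard1, Brca2, Rad51c, Chek2, Fancg, Mdc1, Msh6 and Xrcc6. The CCAAT letters, on either strand, were present in 53.8% of the promoters, against 37.5% for tested genes and 37.4% for all. The GC box GGGCGG was present in 59.6%, against 61.2% of promoters of tested genes, the CHR letters TTTGAA or TTCGAA in 9.62% (14.2% for tested genes), and the p53 half-site in 7.69% (6.70%). These shares carry no test, and a match is a run of letters and not a site shown to be bound. The promoters below are those of 3 genes with an E2F match and those of Brca1 and Palb2. Of the 3, Msh6 had a steady level and Chek2 was among the genes named for the genotype comparison in central HSCs. Brca1 and Palb2, whose proteins bind each other, had estimates of opposite sign between compartments in WT mice. Sequences run 5′ to 3′ on the strand of the gene, from RefSeq, and capitals mark E2F letters (8 bases) and CCAAT or its reverse complement (5 bases). The E2F match began 152 bases before the start site in Chek2, 168 before it in Brca2 and 16 after it in Msh6.
Chek2, chr5:110839733-110840032, plus strand: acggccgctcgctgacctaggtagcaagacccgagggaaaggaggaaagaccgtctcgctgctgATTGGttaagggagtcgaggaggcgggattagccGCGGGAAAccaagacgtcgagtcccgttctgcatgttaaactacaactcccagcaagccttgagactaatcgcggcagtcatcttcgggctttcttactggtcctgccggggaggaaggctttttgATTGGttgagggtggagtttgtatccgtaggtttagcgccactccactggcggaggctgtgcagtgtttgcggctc
Brca2, chr5:150522371-150522670, plus strand: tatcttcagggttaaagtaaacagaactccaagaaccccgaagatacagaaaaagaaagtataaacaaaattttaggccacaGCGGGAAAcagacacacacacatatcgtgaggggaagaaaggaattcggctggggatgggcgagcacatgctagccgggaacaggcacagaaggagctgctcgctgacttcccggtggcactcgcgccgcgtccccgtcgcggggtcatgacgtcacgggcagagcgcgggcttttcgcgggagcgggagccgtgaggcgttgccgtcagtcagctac
Msh6, chr17:87974800-87975099, plus strand: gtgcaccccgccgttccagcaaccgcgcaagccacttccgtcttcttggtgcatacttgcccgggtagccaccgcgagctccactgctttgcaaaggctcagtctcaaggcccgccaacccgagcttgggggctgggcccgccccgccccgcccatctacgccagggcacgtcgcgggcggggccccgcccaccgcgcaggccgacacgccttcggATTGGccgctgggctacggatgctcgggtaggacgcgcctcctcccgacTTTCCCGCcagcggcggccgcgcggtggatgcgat
Brca1, chr11:101551906-101552205, minus strand: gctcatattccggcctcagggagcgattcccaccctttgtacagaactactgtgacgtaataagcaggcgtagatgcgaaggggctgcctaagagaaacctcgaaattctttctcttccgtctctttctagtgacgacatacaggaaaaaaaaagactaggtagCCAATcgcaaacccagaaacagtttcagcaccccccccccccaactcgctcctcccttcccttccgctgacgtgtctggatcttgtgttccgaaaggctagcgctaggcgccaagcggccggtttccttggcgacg
Palb2, chr7:122132897-122133196, minus strand: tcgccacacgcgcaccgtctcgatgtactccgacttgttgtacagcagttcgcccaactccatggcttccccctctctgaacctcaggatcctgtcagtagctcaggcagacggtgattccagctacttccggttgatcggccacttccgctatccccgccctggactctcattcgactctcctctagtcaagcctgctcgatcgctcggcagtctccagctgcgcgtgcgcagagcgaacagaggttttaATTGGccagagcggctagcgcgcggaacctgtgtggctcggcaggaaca

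The comparison of compartments in WT mice asks whether these genes differ between HSCs near bone and HSCs of the central marrow. Of the 52 genes tested, 0 passed an FDR of 0.1 in edgeR's quasi-likelihood test, as did 0% of all 11181 genes tested. At an unadjusted p under 0.05 there were 4 of 52 genes, which is 7.69% against 7.89% of all genes. Estimates were higher in endosteal HSCs for 30 genes and lower for 22, where 51.5% of all genes were higher, and their median log2 fold change was 0.14, against 0.03 for all genes. The median 95% interval reached 2.06 log2 units to either side, and smaller differences were mostly not detectable. Since the libraries were made from pools, fewer cells with a transcript and less RNA per cell cannot be told apart.

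Rad9a, which encodes a subunit of the 9-1-1 checkpoint clamp, differed most between the compartments. It had 7.29, 27.5, 23.9 and 70.8 CPM in the 4 endosteal WT libraries and 0, 0.62, 1.34 and 0.336 CPM in the central ones, and these groups did not overlap. The central values rest on 0, 2, 1 and 1 counts, against 30 to 868 in endosteal libraries. The rate summed over libraries was 74.8 times higher in endosteal HSCs, with an exact 95% interval of 29.1 to 275 that covers counting error only. The adjusted p was 0.302 in edgeR's test and 0.00155 in DESeq2's Wald test, which called 2 of the 55 genes and 1.97% of all genes. Rad9a (chr19:4195196-4201662, GRCm38, minus strand) shares 225 bases at its end with Ppp1ca, a phosphatase subunit on the plus strand, and reads were counted without regard to strand. Ppp1ca had 244 to 423 CPM in endosteal WT libraries and 73.1, 39.7, 14.7 and 224 in central ones, a log2 fold change of 1.94 (SE 0.63, adjusted p = 0.481 in edgeR). The part of Ppp1ca reads in the Rad9a counts was not tested. Among libraries in which spike-in RNAs took over 0.5% of reads, 3 per group, the log2 fold change was 4.91 (adjusted p = 0.614 in edgeR).

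Palb2 and Brca1, partners in homologous recombination, had estimates in opposite directions, and neither passed an FDR of 0.1 in edgeR. PALB2 brings BRCA2 to breaks marked by BRCA1. Palb2 had 61.7, 35.4, 36.4 and 31.7 CPM in endosteal WT libraries and 0.903, 9.92, 6.69 and 4.37 in central ones. The groups did not overlap, and its log2 fold change was 2.89 (SE 0.94, adjusted p = 0.481 in edgeR and 0.0575 in DESeq2). Brca1 had 0.729, 0.0664, 12.7 and 2.37 CPM in endosteal and 56.9, 55.2, 26.7 and 52.4 CPM in central WT libraries. All 4 endosteal values lay below the central ones, with a log2 fold change of -3.60 (SE 1.27, adjusted p = 0.511 in edgeR), and DESeq2 gave no adjusted p. For Rad9a, Palb2, Brca1 and Ercc1 the exact permutation test (two-sided, unadjusted) gave p = 0.0286, the smallest that 4 against 4 libraries allow. Any gene whose groups do not overlap reaches this value, so it adds nothing to the lack of overlap. Without endosteal library C the estimate for Brca1 was -5.48. Among libraries with more spike-in reads the estimates were 2.84 for Palb2 and -3.40 for Brca1, and the 1 library per group with fewer had the same order for both genes.

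Fancd2, which is ubiquitinated at crosslinks together with FANCI, had 0 to 7.97 CPM in endosteal and 0, 57.7, 1.34 and 170 CPM in central WT libraries. Its log2 fold change of -3.89 (SE 1.69, adjusted p = 0.605) was -2.37 without central library D, and the groups overlapped. Rad50 had a log2 fold change of -0.83 (SE 0.47, adjusted p = 0.682), or -0.42 without central library A. Ercc3, a helicase of TFIIH, had 161 CPM in endosteal WT library A and 0 to 43.3 CPM in the other 7 WT libraries, and its log2 fold change of 2.45 (SE 1.15, adjusted p = 0.626) was 1.40 without that library. Groups of 4 genes did not overlap (Rad9a, Palb2, Brca1 and Ercc1), against 6.36% of all genes. By role, 3 of 4 genes of non-homologous end joining tested, 6 of 9 Fanconi genes and 5 of 10 genes of homologous recombination had higher estimates in endosteal HSCs, and in no role did a gene pass an FDR of 0.1.

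**Figure D4:**
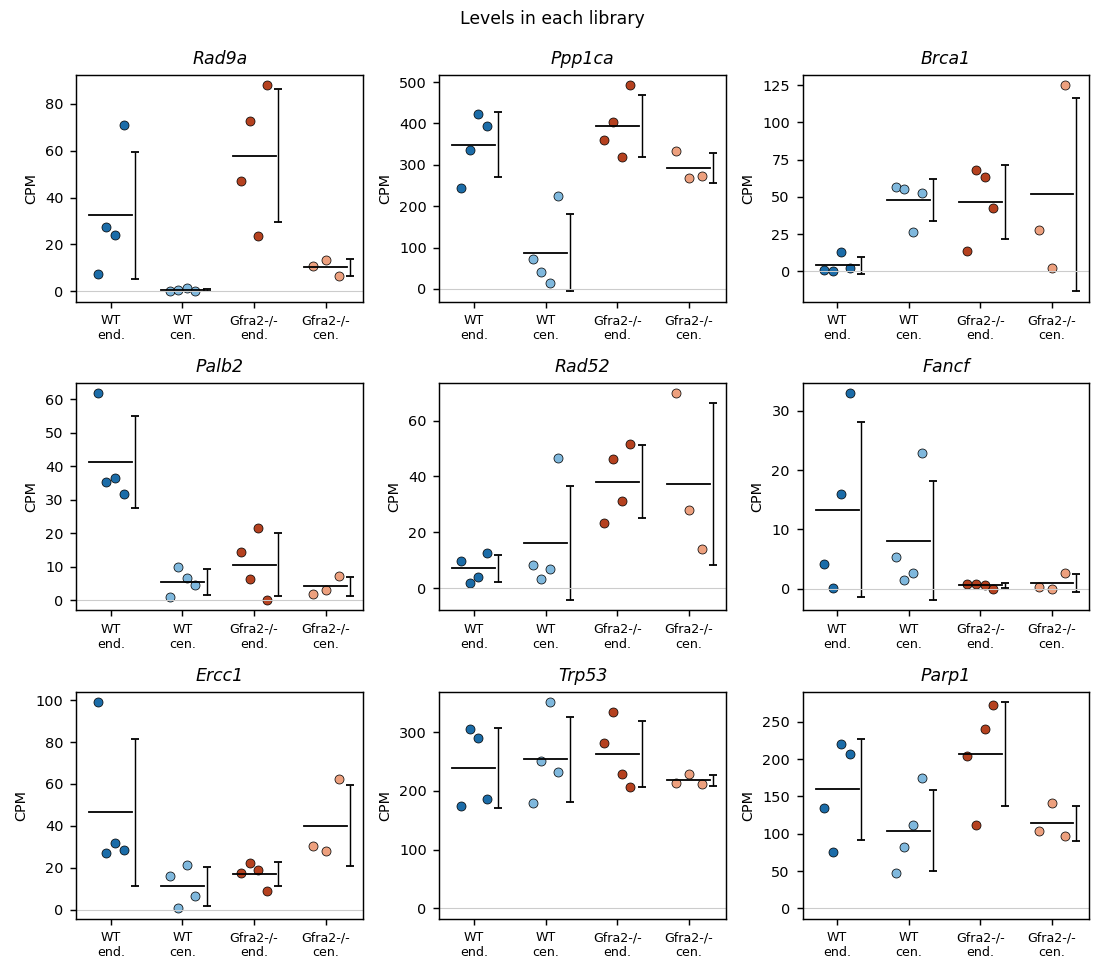
CPM of Rad9a, its neighbour Ppp1ca and 7 other genes in each library by group, with means (lines) and SD (bars); axes are linear. Rad9a lies at 0 to 1.34 CPM in central WT libraries, Palb2 is highest in the endosteal WT libraries (31.7 to 61.7 CPM), and Trp53 spans 174 to 352 CPM with no separation of the groups.

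The same comparison in mice labelled Gfra2-/- had deeper central libraries, with 53 genes tested. Of these, 0 passed an FDR of 0.1 in edgeR, against 0% of all 13860 genes, and 3 (5.66%) had an unadjusted p under 0.05, against 4.79% of all genes. Estimates were higher in endosteal HSCs for 32 genes and lower for 21, where 51.6% of all genes were higher, and the median log2 fold change was 0.15 (0.03 for all genes).

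Rad9a had 47.3, 72.6, 23.7 and 88.2 CPM in endosteal and 10.99, 13.5 and 6.40 CPM in central libraries labelled Gfra2-/-. Every endosteal library lay above every central one, as in WT mice. The log2 fold change was 2.49 (SE 0.66, adjusted p = 0.896 in edgeR and 0.0118 in DESeq2, which called 1.22% of all genes). It was 1.78 without the 2 endosteal libraries with the most Gfra2 counts, and Ppp1ca had a log2 fold change of 0.44 (SE 0.24, adjusted p = 0.999).

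Xpc, which recognises bulky lesions, had 59.2 to 181 CPM in endosteal and 16.5 to 53.9 in central libraries. These groups did not overlap, with a log2 fold change of 1.48 (SE 0.57, adjusted p = 0.999). Parp1, the sensor of nicked DNA, had 205, 111, 240 and 272 CPM in endosteal libraries and 104, 140 and 97.0 in central ones, a log2 fold change of 0.86 (SE 0.36, adjusted p = 0.999). In the other direction stood Ercc1, part of the nuclease that cuts 5′ of a lesion, with 8.91 to 22.4 CPM in endosteal and 28.1 to 62.2 in central libraries and a log2 fold change of -1.24 (SE 0.63), or -0.77 without central library C. Mdm4 (-0.61, SE 0.36) and Fance (-1.39, SE 0.81) were also lower. Without the 2 endosteal libraries with the most Gfra2 counts the estimates were -0.99 and -2.40. With 1 library left out they ran from -0.82 to -0.41 (without endosteal library A) for Mdm4, and from -2.21 (without endosteal library D) to -0.99 (without central library C) for Fance. The adjusted p of all 3 in edgeR was 0.999. The groups of 4 genes did not overlap (Rad9a, Xpc, Ercc1 and Ercc2), which compares with 7.34% of all genes. All 4 genes of single-strand break and base excision repair and both mismatch repair genes had higher estimates in endosteal HSCs, from 0.39 to 1.05 and from 0.60 to 0.80. In WT mice this held for 2 of 4 and 1 of 2.

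The comparison of genotypes in central HSCs has the shallow WT libraries on one side, and 51 genes were tested. Here 0 passed an FDR of 0.1, against 0.051% of all 11772 genes, and 4 (7.84%) had an unadjusted p under 0.05, against 8.73% of all genes. Estimates were higher in libraries labelled Gfra2-/- for 27 genes and lower for 24, where 51.4% of all genes were higher, and the median log2 fold change was 0.09 (0.03 for all genes).

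Rad9a had 361 counts summed over the 3 central libraries labelled Gfra2-/-, against 4 in central WT libraries. The summed rate was 21.6 times higher (8.35 to 79.6, counting error only), with an adjusted p of 0.381 in edgeR. DESeq2 gave no adjusted p for Rad9a, Palb2 and Rad51c here, and called 0 of the other genes tested and 3.59% of all genes. Without a filter on low counts, chosen after seeing the data, the adjusted p of Rad9a in DESeq2 was 0.0188. Chek2, a checkpoint kinase downstream of ATM, had 6.32, 17.4, 5.35 and 8.07 CPM in central WT libraries and 51.3, 64.7 and 17.8 CPM in those labelled Gfra2-/-. The groups touched without overlapping, and the log2 fold change was 2.21 (SE 0.94, adjusted p = 0.529). Rad54l had 2.71 to 44.0 CPM in central WT libraries and 81.9 to 123 in those labelled Gfra2-/-, a log2 fold change of 2.19 (SE 0.86, adjusted p = 0.496). Rad54l shares exon bases with Lrrc41 on the other strand.

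Rad50 had 290, 87.1, 151 and 146 CPM in central WT libraries and 47.9, 34.2 and 123 in those labelled Gfra2-/-. Its log2 fold change was -1.32 (SE 0.60, adjusted p = 0.562), and -2.09 without central library C labelled Gfra2-/-. Bard1, the partner of BRCA1 in a ubiquitin ligase, had a log2 fold change of -2.54 (SE 1.51), and Xpc of -1.36 (SE 0.81), or -0.52 without central WT library A. The adjusted p was 0.684 for both. The groups of 7 genes tested did not overlap, and all 7 were higher in libraries labelled Gfra2-/- (Rad9a, Chek2, Hus1, Rad54l, Fancc, Fancl and Ercc1). Among all genes 12.4% did not overlap, 7.99% higher and 4.44% lower. All 4 genes of non-homologous end joining tested had higher estimates, from 0.23 to 0.62, and 0 of them reached an unadjusted p under 0.05.

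In endosteal HSCs, 54 genes were tested between genotypes. Again 0 passed an FDR of 0.1 in edgeR (0% of all 12970 genes), and 5 (9.26%) had an unadjusted p under 0.05, against 6.69% of all genes. Estimates were higher in libraries labelled Gfra2-/- for 31 genes and lower for 23, where 51.5% of all genes were higher. The median log2 fold change was 0.27 (0.03 for all genes), so that the genes stood 0.24 above all genes, and this difference was -0.04 without endosteal library B labelled Gfra2-/-, which is the library with 47 Gfra2 counts.

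Rad52 and Brca1, both of homologous recombination, had the smallest p among these genes. Rad52, which anneals single strands, had 9.72, 1.93, 3.99 and 12.6 CPM in endosteal WT libraries and 23.3, 46.4, 31.2 and 51.7 CPM in those labelled Gfra2-/-. The groups did not overlap, with a log2 fold change of 2.44 (SE 0.79, adjusted p = 0.737 in edgeR and 0.0867 in DESeq2, which called 1.09% of all genes). Brca1 had 13.5, 68.0, 63.4 and 42.6 CPM in endosteal libraries labelled Gfra2-/-, above all 4 endosteal WT libraries (0.0664 to 12.7 CPM). Its log2 fold change was 3.56 (SE 1.29, adjusted p = 0.737 in edgeR and 0.1003 in DESeq2), and 5.45 without endosteal WT library C. Palb2 had 14.4, 6.19, 21.6 and 0.0874 CPM, below all endosteal WT libraries, with a log2 fold change of -1.96 (SE 1.09, adjusted p = 0.765). Brca1 and Palb2 thus stood in opposite directions here too, and both comparisons share the endosteal WT libraries. Without those libraries the estimates were smaller than their SE. Between compartments in libraries labelled Gfra2-/- they were -0.14 (SE 1.07) for Brca1 and 1.37 (SE 1.48) for Palb2. Between genotypes in central HSCs they were 0.09 (SE 1.01) and -0.45 (SE 1.24), and the groups overlapped in each case.

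Atm had 53.2, 88.0, 54.6 and 39.2 CPM in endosteal WT libraries and 76.2, 118, 112 and 127 in those labelled Gfra2-/-, a log2 fold change of 0.88 (SE 0.37, adjusted p = 0.737). Fancf, an adaptor of the Fanconi core complex, had 4.13, 0.133, 16.0 and 32.9 CPM in endosteal WT libraries and 0.877, 0.755, 0.692 and 0 CPM in those labelled Gfra2-/-. The groups overlapped, since 1 WT library had 2 counts, and the log2 fold change was -4.49 (SE 1.68, adjusted p = 0.737), or -3.51 without WT library D. Its exon shares bases with Gas2 on the other strand. Ercc3 and Ercc1 were lower by estimate, with log2 fold changes of -2.10 (SE 0.88) and -1.44 (SE 0.66) that were -1.09 and -0.78 without endosteal WT library A, where both genes were highest. Groups of 4 genes did not overlap (Rad52, Brca1, Palb2 and Ercc1), against 6.24% of all genes. All 4 genes of single-strand break and base excision repair had higher estimates (0.38 to 1.202), whereas 5 of 7 genes of nucleotide excision repair had lower ones. The endosteal libraries labelled Gfra2-/- are the same as in the comparison of compartments. In central HSCs 2 of the 4 single-strand break and base excision repair genes were higher between genotypes.

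**Figure D5:**
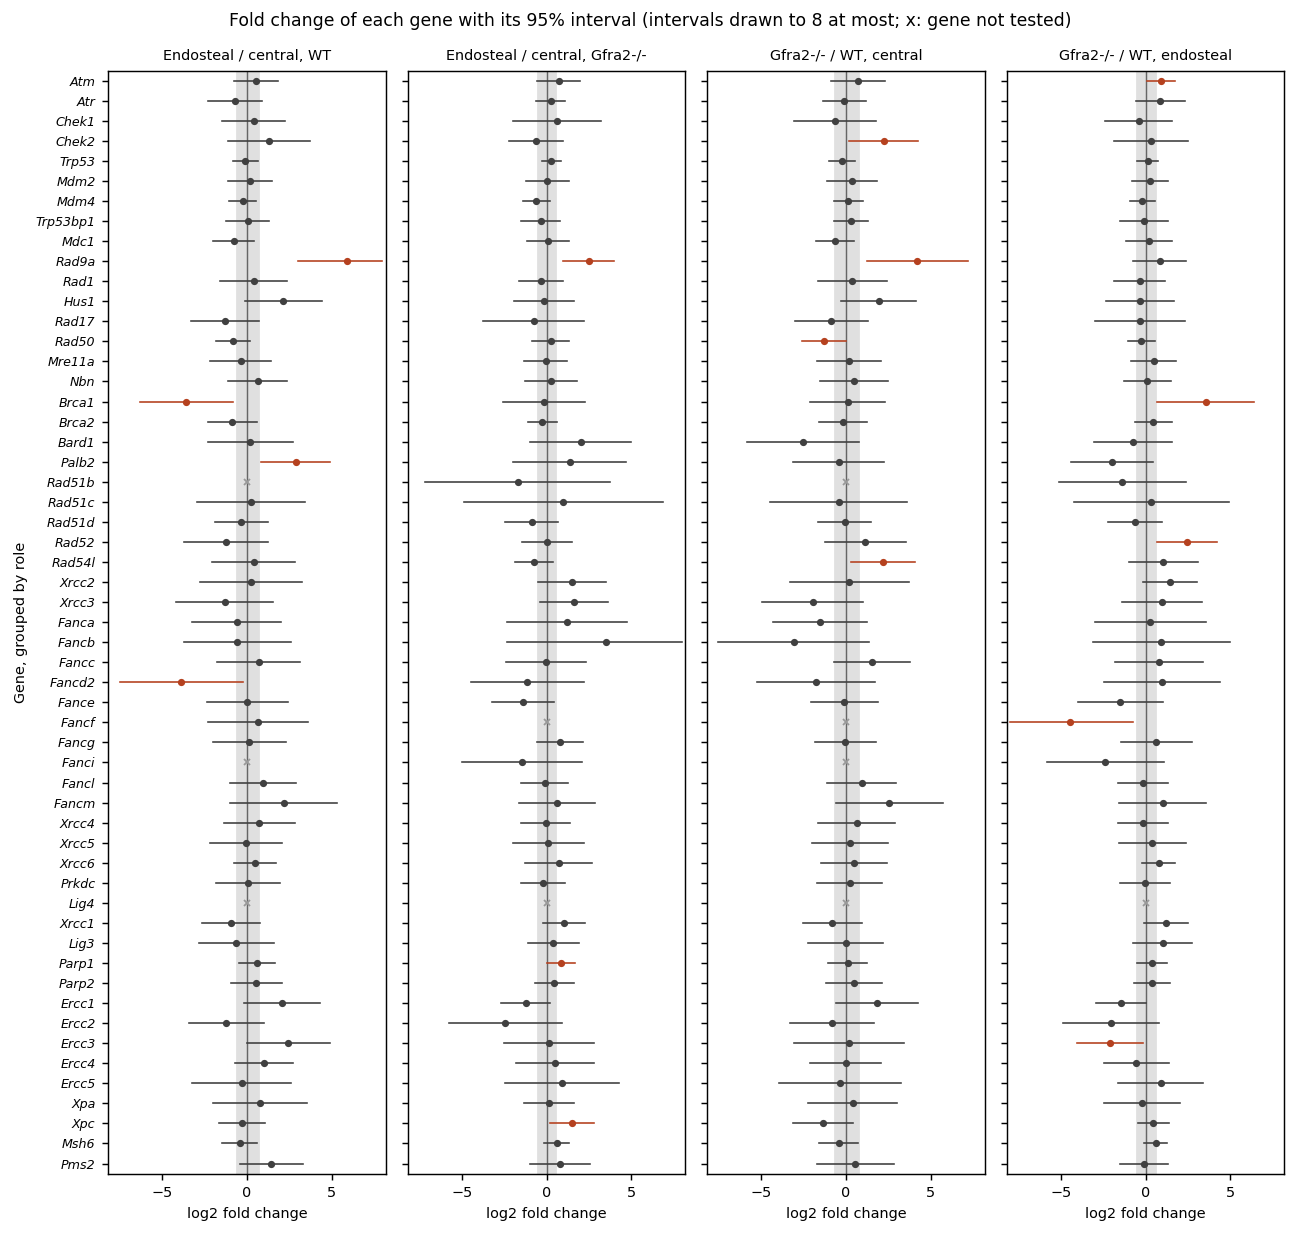
Log2 fold change (points) and 95% interval (lines) of each gene in the 4 comparisons, in red where the unadjusted edgeR p is under 0.05; the grey band holds the central 50% of all genes tested, and crosses are genes not tested. No gene passed an FDR of 0.1, and most intervals cross 0 and reach beyond 1 log2 unit to either side.

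Fits over all 15 libraries gave the compartment and genotype differences with the other factor held, and 55 genes were tested. For compartment, 0 of 55 passed an FDR of 0.1 in edgeR (0.0259% of all 15416 genes) and 3 (5.45%) had an unadjusted p under 0.05, against 8.71% of all genes. Estimates were higher in endosteal HSCs for 34 genes, where 53.1% of all genes were higher. Rad9a was nearest to the threshold, with a log2 fold change of 3.95 (SE 0.81, adjusted p = 0.126 in edgeR), and it passed in DESeq2 (adjusted p = 9.53e-06, where 2.64% of all genes were called) and in edgeR without a filter on low counts (0.058). Palb2 had 2.17 (SE 0.84), Fancd2 -2.66 (SE 1.35, -1.75 without central WT library D) and Ercc2 -1.77 (SE 0.91). Their adjusted p ran from 0.468 to 0.615.

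For genotype, 0 of 55 passed in edgeR (0.804% of all genes), and 5 (9.09%) had an unadjusted p under 0.05, against 11.9% of all genes. Estimates were higher in libraries labelled Gfra2-/- for 31 genes, where 54.7% of all genes were higher. Rad9a (2.16, SE 0.75), Rad52 (1.87, SE 0.69) and Fancf (-3.82, SE 1.33) had adjusted p of 0.227, 0.259 and 0.227 in edgeR. In DESeq2 these 3 genes passed, with adjusted p of 0.0366, 0.0588 and 0.0192, where 6.75% of all genes were called. Rad50 had -0.72 (SE 0.36, adjusted p = 0.444). Without a filter on low counts, chosen after seeing the data, DESeq2 called 4.49% of all genes for compartment in WT mice, 2.75% for compartment in mice labelled Gfra2-/-, 5.14% for genotype in central and 3.71% in endosteal HSCs, and 3.59%, 8.39% and 1.62% in the 3 joint fits. The genes of the 55 that it called were Rad9a, Palb2, Chek2, Rad52, Brca1 and Fancf, each in the direction given above. In the interaction of genotype and compartment, 0 of 55 genes passed (0% of all genes, and 1.18% in DESeq2, with 0 of the 55), and 3 (5.45%) had an unadjusted p under 0.05, against 6.97%. Estimates were above 0 for 27 genes, as for 46.3% of all genes. The estimates were -3.45 (SE 1.28) for Rad9a, -3.32 (SE 1.24) for Ercc1, 3.44 (SE 1.71) for Brca1 and 1.79 (SE 0.88) for Xpc, with adjusted p from 0.586 to 0.713, so a difference in the effect of compartment between genotypes was not shown for any of them. The estimate for Xpc was 0.95 without central WT library A, and that for Brca1 was 5.34 without endosteal WT library C and 5.23 without central library C labelled Gfra2-/-.

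For a few genes the fits over all 15 libraries, scaled by TMM, set a limit on the size of a difference averaged over the other factor. Between compartments, the 95% interval lay within 1 log2 unit of 0 for Trp53 (0.08, -0.37 to 0.53), Mdm2, Mdm4, Trp53bp1 and Msh6. Between genotypes it did so for Trp53 (-0.02, -0.47 to 0.42), Mdm4, Trp53bp1, Parp1 and Msh6. The intervals of the other genes went beyond that, and over all 55 the median reach to either side was 1.41 log2 units for compartment and 1.38 for genotype. Within each genotype alone only Trp53 kept within 1 log2 unit between compartments. Msh6 had -0.44 (-1.47 to 0.58) in WT mice and 0.60 (-0.14 to 1.33) in mice labelled Gfra2-/-. Within each compartment alone only Trp53 and Mdm4 did so between genotypes. With spike-in scaling the median of all genes was 0.63 for compartment and 0.74 for genotype.

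A wider list held 80 other repair and damage response genes. In edgeR 0 of the 72 to 80 genes tested passed an FDR of 0.1 in the 4 pairwise comparisons. At an unadjusted p under 0.05 there were 4 to 7 (5.06 to 9.72%), against 4.79 to 8.73% of all genes. DESeq2 called 3 for compartment in WT mice (1.97% of all genes), 3 for genotype in central HSCs (3.59%) and 0 in the other pairwise comparisons. In the joint fits it called 1 for compartment (2.64%), 4 for genotype (6.75%) and 1 for the interaction (1.18%). Between genotypes over both compartments 1 gene passed in edgeR, Topbp1, the activator of ATR. Topbp1 had 106 to 232 CPM in endosteal and 168 to 374 in central WT libraries, and 45.5 to 118 and 57.8 to 114 CPM in those labelled Gfra2-/-, a log2 fold change of -1.30 (SE 0.30, adjusted p = 0.0807 in edgeR, where 0.804% of all genes passed). It remained past the threshold in 4 of 15 fits without 1 library, with estimates from -1.42 to -1.15 and an adjusted p of up to 0.198. In 11 other alternatives it was past the threshold in 6, with estimates from -1.34 to -0.79. It was lost without the 2 endosteal libraries with the most Gfra2 counts (adjusted p = 0.221), in libraries past the quality cut-offs (0.159) and in those with more spike-in reads (0.361). It was also lost with no filter on low counts (0.112) and with spike-in scaling. With that scaling the estimate was -0.79, the median of all genes 0.74 and the adjusted p = 0.933. Fen1, the flap endonuclease, had 0 counts in all 4 central WT libraries and 2.95 to 4.25 CPM in the 3 central libraries labelled Gfra2-/- (adjusted p = 0.334). Dclre1a, a crosslink nuclease, had 5.53 to 44.2 CPM in endosteal and 0 to 1.68 CPM in central WT libraries (adjusted p = 0.449), and Smug1, a uracil glycosylase, had 0.243 to 7.34 and 14.8 to 37.4 CPM (adjusted p = 0.586).

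Targets of p53 read out whether the pathway is active. Of a list of 28, between 16 and 27 were tested and 0 passed an FDR of 0.1 in any of the 7 fits in edgeR. DESeq2 called 1 for compartment in WT mice (1.97% of all genes) and 0 in the other fits. Cdkn1a, the cell cycle inhibitor p21, had 0 counts in all 4 endosteal WT libraries, in 3 of 4 central ones, in 2 of 4 endosteal and in 1 of 3 central libraries labelled Gfra2-/-. In the other libraries it had 2.31 to 21.4 CPM. Ddb2, a p53 target that also recognises UV lesions, had 3.65 to 38.0 CPM in endosteal WT libraries and 0 to 3.41 in central ones, with a log2 fold change of 4.34 (SE 1.42, adjusted p = 0.481). Trp53inp1 had 2.77 to 41.8 CPM in endosteal WT libraries and 43.9 to 113 in those labelled Gfra2-/-, which do not overlap (2.04, SE 0.89, adjusted p = 0.737).

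Since homologous recombination genes follow the cell cycle, a list of 15 proliferation genes was read beside them. Its summed level was 1553 to 2850 CPM in endosteal WT, 1775 to 3499.9 in central WT, 1860 to 3673 in endosteal and 1077 to 2473 in central libraries labelled Gfra2-/-, and these ranges overlapped. Central HSCs labelled Gfra2-/- had lower estimates for 11 of 15 proliferation genes than central WT HSCs, with a median of -0.55, and 0 passed an FDR of 0.1. Within Gfra2-/- labels, 13 of 15 were higher in endosteal than in central HSCs (median 0.54), with 0 past that FDR in edgeR and 2 in DESeq2. Between genotypes in endosteal HSCs 10 of 15 were higher (median 0.08), and between compartments in WT mice 8 of 15 (median 0.02). In the interaction 12 of 15 estimates were above 0, and 0 passed. The part of the cell cycle in the values of the repair genes was not tested.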

How the data were processed

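RNA-Seq libraries of 30 sorted HSCs were made by the authors with Smart-seq2, without molecular identifiers. Per the submitters' processing notes, reads were aligned to GRCm38 with GSNAP and counted with HTSeq 0.5.3p3. The deposited table holds raw counts, read without regard to strand, with rows for 46078 genes besides spike-ins (92) and HTSeq summaries (5). Columns were assigned to groups by the sample sheets of the study. Of 16 samples in the labels, 15 libraries entered the fits; 1 column of per-sample values was not mapped and not used.

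Tests were run with edgeR 4.0.16 in R 4.3.3: libraries of the groups compared, filterByExpr, TMM, the quasi-likelihood test and Benjamini-Hochberg adjustment over all genes, with an FDR of 0.1. Fits of both factors and their interaction used all 15 libraries. The Wald test of DESeq2 1.42.0 was an alternative, as were other filters, spike-in scaling, thinned counts, a term for the libraries with few spike-in reads and 1 fit of all groups. Other fits left out single libraries, the 2 with the most Gfra2 counts, those with few spike-in reads or those below the quality cut-offs. For these cut-offs, reads on genes and genes with a read were used. Spike-in RNAs and summary categories were left out. Scripts were tested on simulated data. Positions, lengths and symbols came from GENCODE M21 (GRCm38), which could differ from the annotation used for counting; 22 of the 55 genes share exon bases with a gene on the other strand. PCR copies are not independent molecules, so depth and intervals of counts cover counting error only.

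The members and lists were chosen with earlier results of these data known. Genes with a fold change in the text are those past the threshold, the 3 with the smallest p per direction in each pairwise comparison (2 in the joint fits), and from the wider lists up to 2 per direction; levels are given for the highest and lowest gene of each role and for textbook members. Values for genes named outside this rule (Hus1, Fancc, Fancl, Palb2 between genotypes, Ercc1 and Ercc2 where only their groups are described, genes listed by their spread, and Ppp1ca) were chosen after they were seen. So were those of Brca1 and Palb2 between compartments in libraries labelled Gfra2-/- and between genotypes in central HSCs. The same holds for Msh6 between compartments within each genotype.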

Additional observations from a re-analysis of the deposited data

Results flagged for a closer look

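Of 54 sets of 4 libraries read for the named genes, 7 had 1 library whose gap to the nearest other exceeded the 95% limit of Dixon's test, where chance flags about 1 in 20. Brca1 had 26.7 CPM in central WT library C, and 52.4 or more in the other 3 libraries of that group. Rad52 had 46.7 CPM in central WT library D, against 8.13 in the next. In endosteal WT library A, Ercc1 had 99.2 CPM, against 31.6 in the next, and Palb2 had 61.7 CPM, against 36.4. Endosteal library B labelled Gfra2-/-, which has 47 Gfra2 counts, stood apart for Chek2 (60.2 CPM, against 21.5) and Fancd2 (25.8 CPM, against 3.32). Fance had 32.6 CPM in endosteal library D labelled Gfra2-/-, against 10.1 in the next.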

How the results depend on the processing

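No paired analysis was possible because the table's columns identify the group of a library and no replicate number. With a term for the library of each group that had few spike-in reads, chosen after seeing the data, 0 of the 55 genes were called in the 7 comparisons. Calls among the 55 genes went with DESeq2 from 0 to 2 (WT compartments), 1 (compartments in libraries labelled Gfra2-/-), 1 (endosteal genotype), 1 (compartment over all libraries) and 3 (genotype over all libraries). Without its filter, also chosen after seeing the data, it called 2, 1, 3, 2 and 3 genes there and 2 between genotypes in central HSCs, and the median of the interaction was -0.40. Medians here are those of the genes minus the median of all genes. In edgeR, 1 gene was called in WT compartments with all 4 groups in one fit, and 1 for compartment over all libraries with no filter; both were Rad9a. The median log2 fold change of the genes moved with spike-in scaling to -0.28 (WT compartments), -0.46 (central genotype) and 0.49 (interaction), and the median of all genes shifted to 1.58, 1.75 and -2.18. With libraries past the quality cut-offs the medians were -0.29 (WT compartments) and -0.33 (central genotype). With 1 library left out the medians ran from -0.14 to 0.37 (WT compartments) and from -0.042 (without endosteal library B labelled Gfra2-/-) to 0.30 (endosteal genotype), and 0 genes were called in all of these fits. The fold changes of named genes kept their sign in all 729 alternative values. Most of these genes were chosen by their small p in the same libraries, so the kept sign is no independent support. The cause of the changes in calls and medians was not tested. The spread between pools limits every comparison, and the low depth of central WT libraries those in which they take part.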
